A study of Arabidopsis thaliana with 9 samples.

Results

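Calmodulin-like (CML) genes of Arabidopsis thaliana were followed across the 3 sample groups of an experiment in which the activity of the DELLA repressor RGA was switched on in inflorescences. They were taken as the probe sets whose single annotated gene symbol is CML followed by a number and whose deposited ratio lay above the 40th percentile of its array on at least 3 of 9 arrays. The symbol named 7 probe sets and 6 of these passed, of 17273 that passed among 22746 in all: CML23, CML30, CML37, CML38, CML41 and CML42. CML43 did not pass, nor did the probe set of AT1G76640, the locus that the gene table also calls CML39 and that is therefore no member by symbol. Of 14 CML genes in that table, 6 had no probe set paired with them (TCH3, AGD11, CML11, CAM9, CAM8 and TCH2) and are not analysed here.

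The members were chosen on measured values, the height of the ratio on its array. The cut-off ran from 0.704 to 0.832 over the 9 arrays. Just inside it stood CML37, above the cut-off on 3 arrays (1 RGA-GR mock and 2 nontransgenic Dex arrays, no RGA-GR Dex array), and just outside it CML43, above it on 2. The other 5 members passed on 7 or 8 arrays, with arrays of every group among them.

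RNA came from inflorescences stripped of flowers older than stage 12, 4 h after treatment, with 3 arrays in each group. In the RGA-GR Dex group, ga1-3 rga rgl2 plants carrying RGA fused to the steroid-binding glucocorticoid receptor (RGA-GR) were given dexamethasone (Dex), which lets the fusion protein enter the nucleus. In the RGA-GR mock group the same line was given mock treatment, and in the nontransgenic Dex group ga1-3 rga rgl2 plants without the transgene were given Dex. All plants were thus mutant in the gibberellin synthesis gene GA1 and in the endogenous DELLA genes RGA and RGL2. Wild type is not analysed here. The promoter of the transgene and the number of independent lines are not given in the sources used here. The design text calls the replicates biologically independent.

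Calcium ions carry signals in plant cells, and proteins with EF-hand loops bind them and pass the signal on. Calmodulin is the EF-hand sensor shared by all eukaryotes. CML proteins are a larger family, typical of plants, built of EF hands with no other known functional domain. Several CML genes are quickly induced by touch, wounding, cold or low oxygen. RGA is a DELLA protein, a nuclear repressor of growth that gibberellin removes.

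Each deposited value is a ratio. In 15112 of 22810 rows it is relative to the median of that row, so it sets arrays of 1 probe set side by side and never 1 gene beside another. CML37, CML43 and AT1G76640 have a median ratio under 1, and what they were divided by is not known. Whether the tissue held its defining transcripts cannot be read from such ratios, and RGA, RGL2 and GA1 themselves are not analysed here. Poly-A spike-in signal set replicates 1 and 2 of both transgenic groups (mean log2 ratio from -3.63 to -2.89) apart from the other 5 arrays (from -0.60 to 0.56). 25S rRNA signal ran from 2.93 to 4.71 in RGA-GR Dex, from -1.01 to 4.15 in RGA-GR mock and from -4.12 to -3.58 in nontransgenic Dex, on the log2 scale. It was read from 1 control probe set, and the spike-in signal from 27. In whole inflorescences, fewer cells of a type and less RNA per cell cannot be told apart.

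Differences below are log2 differences between means of 3 arrays a group. Their standard errors, 95% intervals and two-sided p values come from limma over all 9 arrays, with Benjamini-Hochberg adjustment over the 17273 probe sets. RGA-GR mock and RGA-GR Dex arrays of the same number are called a pair.

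The comparison of RGA-GR Dex with RGA-GR mock asks which CML transcripts respond when RGA becomes active. It cannot set a response to RGA apart from one to Dex itself. CML38 had a mean 2.20-fold higher after Dex and CML41 a mean 1.56-fold lower, each without overlap of the groups. CML23, CML37 and CML42 had lower means and CML30 a higher one, all with overlapping groups. None of the 6 passed the adjusted threshold of 0.05 in limma, and 0% of all probe sets did. At an unadjusted p under 0.05 there were 2 of 6, CML38 and CML41, against 8.83% of all probe sets, and groups did not overlap in 2 of 6, against 11.5%. The median over the members was -0.21, against 0.077 over all probe sets.

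CML38 encodes a sensor whose transcript is known for its rise after wounding and under low oxygen, where the protein gathers in stress-granule-like bodies. Its probe set (259879_at, locus AT1G76650) had ratios of 2.18, 2.19 and 1.25 on the RGA-GR Dex arrays, against 0.638, 1 and 0.879 on the RGA-GR mock arrays. Its lowest RGA-GR Dex value thus lay above its highest RGA-GR mock value. On the log2 scale the means were 0.86 ± 0.46 in RGA-GR Dex and -0.28 ± 0.33 in RGA-GR mock (SD, n = 3 each). The difference was 1.14 ± 0.42 (SE), with an interval from 0.20 to 2.08 and a limma p of 0.0221, or 0.535 adjusted. It was larger than that of 98.0% of all probe sets. The 3 pairs gave 1.77, 1.13 and 0.51, and since the groups did not overlap, any pairing would give the same sign. The smallest of these came from the pair with spike-in signal, and the mean over the arrays without that signal was 1.45.

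AT1G76640 (CML39), which acts in seedling establishment, lies next to CML38 in the gene table and encodes a close relative. Its ratios were 0.0416, 0.0951 and 0.0593 in RGA-GR Dex, against 0.0643, 0.0691 and 0.0333 in RGA-GR mock. They lay far under the filter on every array, and those of the RGA-GR groups overlapped. The same fit without the filter gave 0.22 ± 0.80 (SE).

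CML37, the third of this related trio, is known as a positive regulator of jasmonate-dependent defence against insects. Its probe set (249197_at, AT5G42380) had ratios of 0.414, 0.706 and 0.405 in RGA-GR Dex, against 0.534, 1.07 and 0.285 in RGA-GR mock. The RGA-GR Dex values lay within the range of the RGA-GR mock values, and the difference was -0.15 ± 0.71 (SE). The sign was mixed over the pairs, with -0.37, -0.60 and 0.51. Its interval, from -1.72 to 1.41, leaves room for a difference as large as that of CML38 in either direction.

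**Figure D1:**
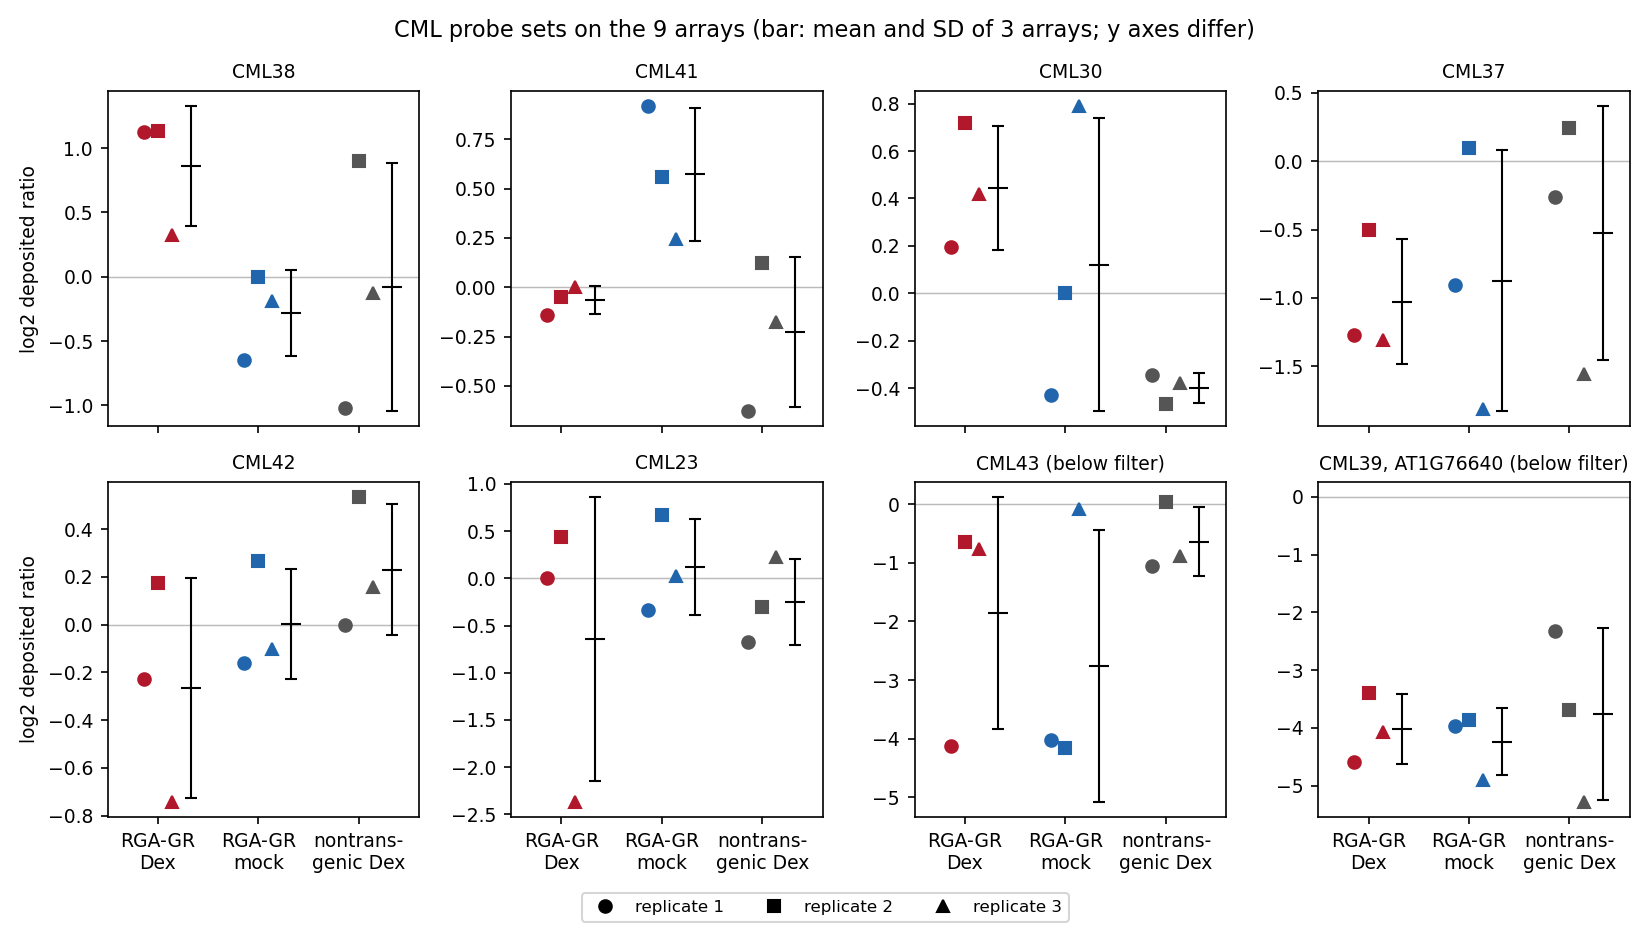
Log2 deposited ratio (y axis, scaled per panel) of each CML probe set on the 9 arrays, by group, with the replicate number as the symbol and the mean and SD of 3 arrays as the black bar. CML38 lay higher on all RGA-GR Dex arrays than on all RGA-GR mock arrays, CML41 lay highest in RGA-GR mock, and CML30 lay between -0.47 and -0.35 on the nontransgenic Dex arrays.

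CML41 encodes a protein known from plasmodesmata, the channels between plant cells, where it promotes their closure by callose during immune responses. Its probe set (252136_at, AT3G50770) had ratios of 0.907, 0.965 and 1 in RGA-GR Dex, against 1.89, 1.47 and 1.19 in RGA-GR mock. All RGA-GR Dex arrays lay below all RGA-GR mock arrays, and the RGA-GR Dex values were close together. On the log2 scale the means were -0.064 ± 0.071 in RGA-GR Dex and 0.57 ± 0.34 in RGA-GR mock (SD, n = 3 each). The difference was -0.64 ± 0.23 (SE), with an interval from -1.14 to -0.13 and a limma p of 0.0178, or 0.533 adjusted. The pairs gave -1.06, -0.61 and -0.24, and since the groups did not overlap, any pairing would give the same sign. The spread between pairs lay in RGA-GR mock, whose values ran over a wider range than those after Dex.

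CML30, which has been located to mitochondria, had a probe set (265494_at, AT2G15680) with ratios of 1.14, 1.65 and 1.34 in RGA-GR Dex, against 0.743, 1 and 1.73 in RGA-GR mock. RGA-GR mock replicate 3 was the highest of all 9 arrays, and the groups overlapped. The difference was 0.32 ± 0.28 (SE, limma p of 0.269), with 0.62, 0.72 and -0.37 in the pairs. Pair 3, with spike-in signal, thus went against the other 2.

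CML42 takes part in trichome branching and in defence against insects. Its probe set (254487_at, AT4G20780) had ratios of 0.853, 1.13 and 0.598 in RGA-GR Dex, against 0.895, 1.20 and 0.932 in RGA-GR mock. The difference was -0.27 ± 0.26 (SE, limma p of 0.322), and all 3 pairs were below 0, with -0.069, -0.089 and -0.64. Pairs 1 and 2 were thus nearly level, and the mean rests on RGA-GR Dex replicate 3.

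CML43, a close relative of CML42 linked to the hypersensitive response to bacteria, was the member by name that the filter left out (249055_at, AT5G44460). Its ratios were 0.0571, 0.639 and 0.586 in RGA-GR Dex, against 0.0613, 0.0560 and 0.949 in RGA-GR mock. Each group held very low arrays and far higher ones, and the groups overlapped. In the fit without the filter the difference was 0.90 ± 1.33 (SE).

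CML23 acts with CML24 in nitric oxide accumulation and flowering time. Its probe set (260135_at, AT1G66400) had ratios of 1, 1.35 and 0.194 in RGA-GR Dex, against 0.795, 1.59 and 1.02 in RGA-GR mock. RGA-GR Dex replicate 3 was the lowest of the 9 arrays. The difference was -0.76 ± 0.64 (SE), with an interval from -2.17 to 0.65 and a limma p of 0.257, or 0.741 adjusted. It was spread over the pairs, with 0.33, -0.23 and -2.39 in the pairs. Without RGA-GR Dex replicate 3 it was 0.098, so that the lower mean rested on this array.

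**Figure D2:**
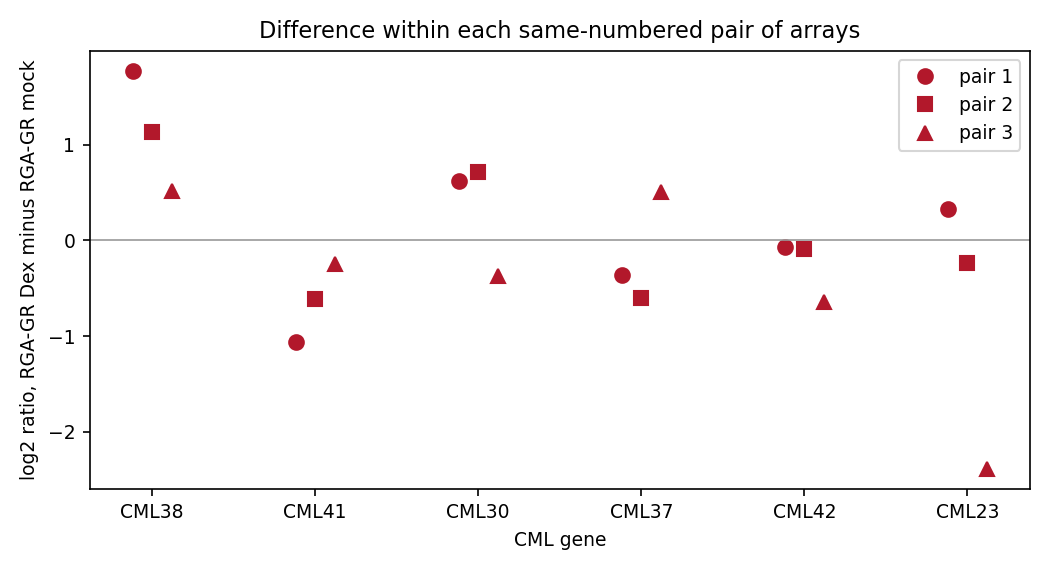
Log2 ratio of RGA-GR Dex minus RGA-GR mock (y axis) for each CML gene in the 3 pairs of arrays of the same number, with the pair as the symbol. CML38 lay above 0 in all 3 pairs (0.51 to 1.77), CML41 and CML42 lay below 0 in all 3, and CML23 lay at -2.39 in pair 3. For CML38 and CML41 the groups did not overlap, so the sign is the same for any pairing.

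With the pairs as a block the adjusted limma p was 0.268 for CML38 and 0.233 for CML41, and the count of CML calls remained 0. Over 20 alternatives the CML38 difference ran from 0.95 to 1.41 and that of CML41 from -0.80 to -0.47, with no call in any.

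Between RGA-GR Dex and nontransgenic Dex, both given Dex, the groups differ in the transgene and its active product, and with it in the plant line. Their arrays also differed in 25S rRNA signal (2.93 to 4.71 against -4.12 to -3.58, log2). RGA-GR Dex replicates 1 and 2 lacked the spike-in signal of the nontransgenic Dex arrays. These differences cannot be told apart. CML30 was higher in RGA-GR Dex and passed the adjusted threshold in limma, 1 of 6 members, against 27% of all probe sets. CML38 had a mean 1.92-fold higher without passing, and CML42, CML37 and CML23 had means 1.41-fold, 1.41-fold and 1.31-fold lower. The median over the members was -0.11, against 0.14 over all probe sets. At an unadjusted p under 0.05 there were 2 of 6 members, against 40.4%, and groups did not overlap in 1 of 6, against 46.2%.

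CML30 had ratios of 1.14, 1.65 and 1.34 in RGA-GR Dex, against 0.787, 0.723 and 0.769 in nontransgenic Dex. The groups did not overlap, and the nontransgenic Dex arrays lay close together. On the log2 scale the means were 0.44 ± 0.26 in RGA-GR Dex and -0.40 ± 0.063 in nontransgenic Dex (SD, n = 3 each). The transcript was 1.79-fold higher in RGA-GR Dex, a difference of 0.84 ± 0.28 (SE), with an interval from 0.23 to 1.46 and an adjusted limma p of 0.0464. It was 0.82 in the arrays with spike-in signal, which hold 1 RGA-GR Dex array. With array medians subtracted, under which the median over all probe sets was -0.053 (0.14 as deposited), the CML30 difference was 0.65 and the adjusted p 0.105. The adjusted limma p was 0.166 without RGA-GR Dex replicate 2, 0.0958 without RGA-GR Dex replicate 3 and 0.0632 without RGA-GR mock replicate 2. It was 0.0858, 0.104 and 0.0885 without nontransgenic Dex replicates 1, 2 and 3. It was 0.152 with quantile normalization, 0.0607 with no filter and 0.0750 with eBayes without trend. The call was thus lost in 10 of 20 alternatives, while the sign held in all 20, from 0.65 to 1.16. Calls over all probe sets moved as well. They numbered 4660 in the main fit, 1874 without RGA-GR Dex replicate 2 (the fewest) and 6626 with the pairs as a block (the most).

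CML38 had ratios of 2.18, 2.19 and 1.25 in RGA-GR Dex, against 0.492, 1.87 and 0.918 in nontransgenic Dex. Nontransgenic Dex replicate 2 lay inside the range of RGA-GR Dex, so the groups overlapped, and the nontransgenic arrays spread more widely than those of any other group for this gene. The difference was 0.94 ± 0.42 (SE), with an interval from 0.0034 to 1.88 and a limma p of 0.0493, or 0.123 adjusted. Without nontransgenic Dex replicate 2 it was 1.43, with an adjusted limma p of 0.0196, the 1 alternative of 20 in which CML38 passed. Without nontransgenic Dex replicate 1 it was 0.47, with an adjusted limma p of 0.492. In the arrays with spike-in signal the difference was 0.41.

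CML41 had ratios of 0.647, 1.09 and 0.886 in nontransgenic Dex, and its RGA-GR Dex values of 0.907 to 1 lay inside that range. The difference was 0.16 ± 0.23 (SE), and its sign turned with quantile normalization (-0.010) and with array medians subtracted (-0.029). CML42 had ratios of 1, 1.45 and 1.12 in nontransgenic Dex, and RGA-GR Dex replicate 2 lay among them. Its difference was -0.50 ± 0.26 (SE), with an interval from -1.06 to 0.071 and a limma p of 0.0802, or 0.173 adjusted. Without RGA-GR Dex replicate 3 it was -0.26 and without RGA-GR Dex replicate 2 it was -0.72, and its sign was the same in all 20 alternatives.

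CML37 had ratios of 0.835, 1.18 and 0.340 in nontransgenic Dex and a difference of -0.50 ± 0.71 (SE). It passed the filter through arrays of the other groups alone, so nothing is read from its lower mean in RGA-GR Dex, here or against RGA-GR mock. The medians over the members in both comparisons of RGA-GR Dex include CML37. CML23 had ratios of 0.625, 0.812 and 1.17 in nontransgenic Dex and a difference of -0.39 ± 0.64 (SE), which was 0.47 without RGA-GR Dex replicate 3. CML43 had ratios of 0.479, 1.02 and 0.541 there, with none of the very low values seen on 1 of 3 RGA-GR Dex arrays. AT1G76640 had 0.201, 0.0779 and 0.0258, a range that spanned every value of the transgenic line.

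**Figure D3:**
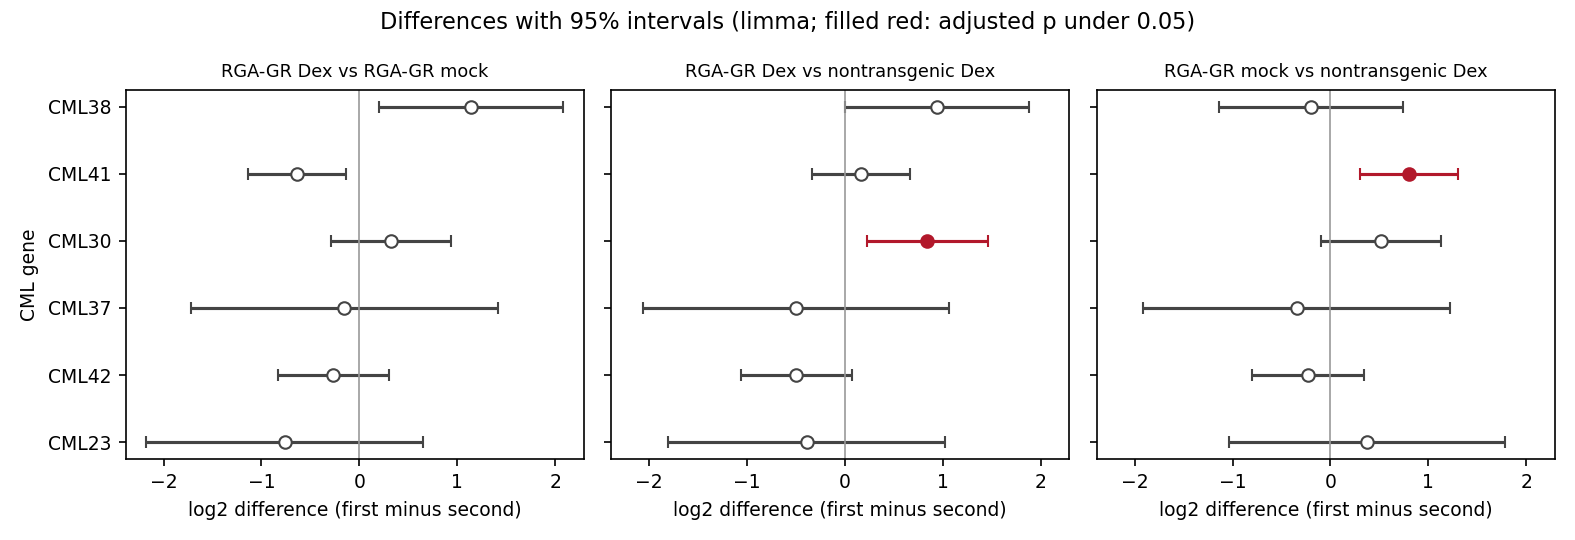
Log2 differences with 95% intervals (x axis, limma) for the 6 CML genes in the 3 comparisons, with filled red points where the adjusted p is under 0.05. CML30 passed between RGA-GR Dex and nontransgenic Dex (0.84), CML41 passed between RGA-GR mock and nontransgenic Dex (0.80), and the intervals of CML37 and CML23 spanned 0 in each comparison.

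A last comparison set RGA-GR mock beside nontransgenic Dex, of which neither has both the transgene and Dex. The groups differ in line and in treatment, and their arrays in 25S rRNA signal (-1.01 to 4.15 against -4.12 to -3.58, log2). RGA-GR mock replicates 1 and 2 also lacked spike-in signal, and none of these differences can be told apart. CML41 was higher in RGA-GR mock, the 1 of 6 members to pass in limma, against 15.3% of all probe sets. At an unadjusted p under 0.05 there was 1 of 6, against 32.9%, and groups did not overlap in 1 of 6, against 40%. The median was 0.088 over the members and 0.069 over all probe sets.

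CML41 had ratios of 1.89, 1.47 and 1.19 in RGA-GR mock, against 0.647, 1.09 and 0.886 in nontransgenic Dex. It was 1.74-fold higher in RGA-GR mock, by 0.80 ± 0.23 (SE), with an interval from 0.30 to 1.30 and an adjusted limma p of 0.0413. RGA-GR mock was thus the group with the highest CML41 values, above both Dex-treated groups without overlap. The means of those groups, -0.064 in RGA-GR Dex and -0.23 in nontransgenic Dex, did not differ beyond their spread. In the arrays with spike-in signal, which hold 1 RGA-GR mock array, the difference was 0.47, and with the spike-in split as a block it was 0.67 with an adjusted p of 0.140. With array medians subtracted it was 0.66, with an adjusted limma p of 0.0884. The adjusted limma p was 0.123 and 0.118 without RGA-GR mock replicates 1 and 2, and 0.158 and 0.0793 without nontransgenic Dex replicates 1 and 3. It was 0.0581 and 0.0538 without RGA-GR Dex replicates 2 and 3, arrays that enter this comparison only through the shared spread. It was 0.0723 with quantile normalization, 0.0558 with no filter, 0.0645 with eBayes without trend and 0.0728 in a fit of the 6 compared arrays. The call was thus lost in 12 of 20 alternatives, while the sign held in all 20, from 0.60 to 0.98. Calls over all probe sets numbered 2635 in the main fit of this comparison. They numbered 0 without RGA-GR mock replicate 2 (the fewest) and 4927 with the pairs as a block (the most).

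CML30 had a mean 1.43-fold higher in RGA-GR mock (0.52 ± 0.28, SE), with an interval from -0.098 to 1.13 and a limma p of 0.0906, or 0.221 adjusted. RGA-GR mock replicate 1, at 0.743, lay within the nontransgenic Dex values. From RGA-GR Dex over RGA-GR mock to nontransgenic Dex, the means of CML30 were 0.44, 0.12 and -0.40, and only the first and the last were apart beyond the test's threshold. CML42 differed by -0.23 ± 0.26 (SE), with an interval from -0.80 to 0.34 and a limma p of 0.390, or 0.564 adjusted. CML38 differed by -0.20 ± 0.42 (SE), with an interval from -1.14 to 0.74 and a limma p of 0.652, or 0.776 adjusted. CML37 (-0.35 ± 0.71) and CML23 (0.37 ± 0.64, SE) had overlapping groups, as had CML42 and CML38. These 3 comparisons share arrays, so a high RGA-GR mock value for CML41 enters 2 of them, as do the low nontransgenic Dex values for CML30.

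**Figure D4:**
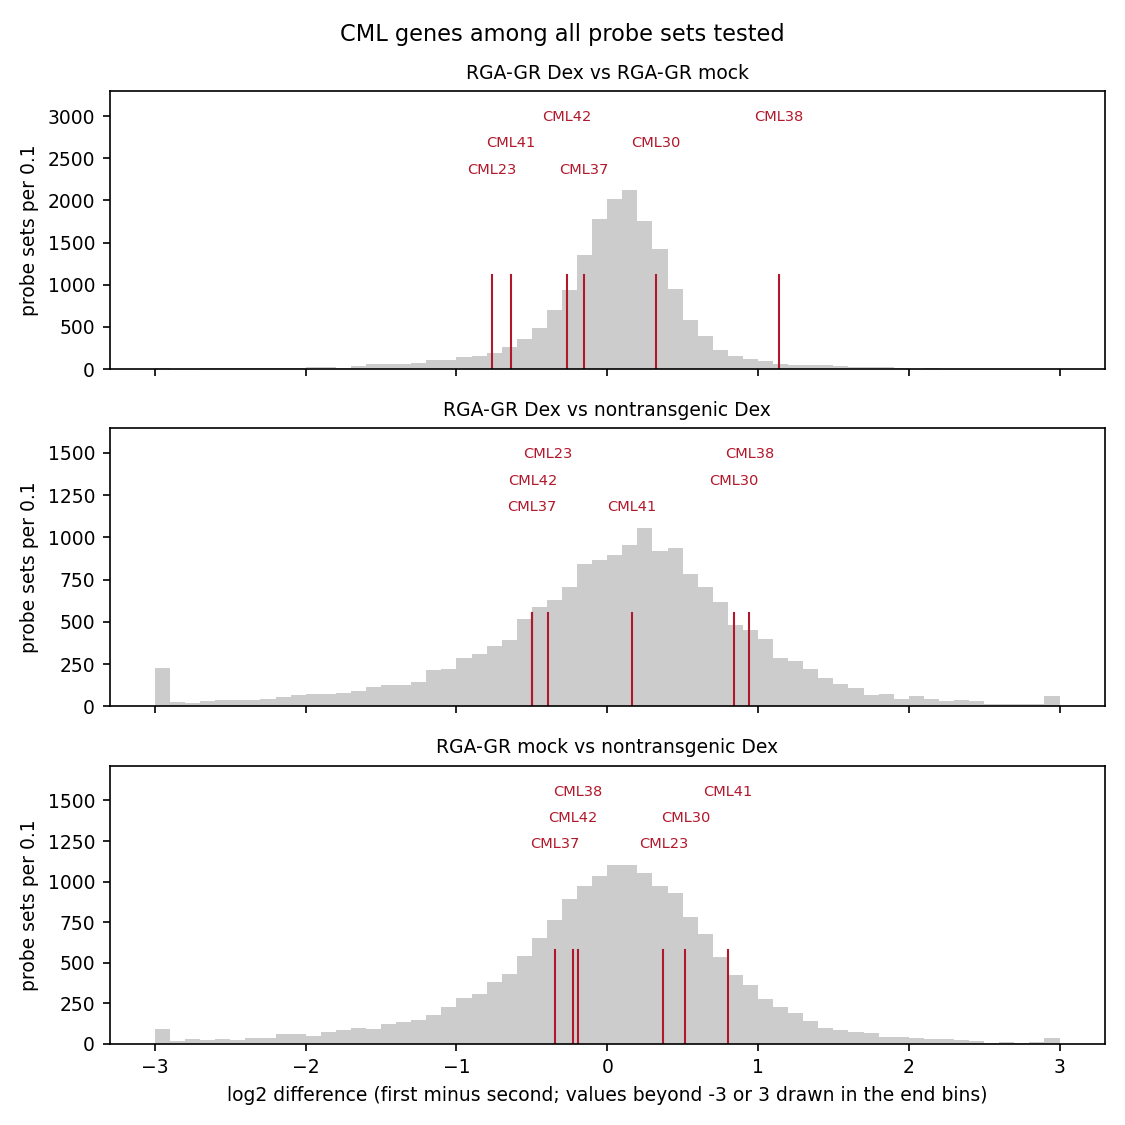
Log2 differences of all 17273 probe sets (grey, number per bin of 0.1 on the y axis) in the 3 comparisons, with the 6 CML genes as red lines. CML38 lay at 1.14 in RGA-GR Dex against RGA-GR mock, above 98.0% of probe sets, while CML30 at 0.84 against nontransgenic Dex lay above 83.7% and CML41 at 0.80 in RGA-GR mock against nontransgenic Dex above 87.0%.

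Markers of other cell types were read on the same arrays, and only listed genes with a singly named probe set could be used. These were ACT12, AGL65, AGL66, AGL104, AT59 and MGH3 for pollen, and AT1G75920, AT5G07230, ATA27 and SHT for tapetum. For photosynthetic tissue they were RCA and LHCB4.1. The mean log2 ratio of 6 pollen markers ran from -2.38 to -0.27 in RGA-GR Dex, from -0.64 to -0.14 in RGA-GR mock and from 0.40 to 0.65 in nontransgenic Dex. That of 4 tapetum markers ran from -1.18 to 0.042, from -0.34 to -0.044 and from 0.24 to 0.60 in the same order, and that of 2 photosynthetic markers from -0.042 to 0.062, from 0.00072 to 0.20 and from -0.94 to -0.86. Between the RGA-GR groups 0 of 6 pollen, 0 of 4 tapetum and 0 of 2 photosynthetic markers passed in limma, against 0% of all probe sets. Since no probe set passed there, these counts do not show the markers to be level. List medians were -0.85, -0.49 and -0.096 in that order, against 0.077 over all probe sets. Means were lower for 5 of 6, 3 of 4 and 2 of 2. Of these markers, only ATA27 (-0.90, limma p of 0.0358) and AT1G75920 (-1.48, limma p of 0.0485) had an unadjusted p under 0.05, against 8.83%. In RGA-GR Dex against nontransgenic Dex 2 of 6 pollen and 2 of 4 tapetum markers passed as lower, against 9.44% of all probe sets. As higher passed 2 of 2 photosynthetic markers, against 17.5%. Both lay under the filter's cut-off on every nontransgenic Dex array and passed it through arrays of the RGA-GR line alone. Nothing is thus read from their calls in either comparison with nontransgenic Dex. In RGA-GR mock against nontransgenic Dex the counts were 1 of 6, 1 of 4 and 2 of 2 in the same directions. Of all probe sets 15.3% passed there in either direction. The markers did not move as one. In RGA-GR Dex against nontransgenic Dex 5 pollen means were lower and 1 higher, from -3.71 for AT59 to 0.22 for AGL65. AT59, among the pollen markers called as lower, was above the cut-off on no RGA-GR Dex array, so nothing is read from its call. All 4 tapetum means were lower, with AT5G07230 nearly level at -0.021. The part of these markers in the differences of CML30, CML38 and CML41 was not tested.

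Of 15 pairs of members, CML42 and CML23 were most alike over the 9 arrays (Pearson r = 0.74), followed by CML37 and CML42 (0.62) and by CML38 and CML30 (0.39). The first of these rested on RGA-GR Dex replicate 3, the lowest array for both genes, and was 0.23 over the other 8 arrays, whereas CML37 and CML42 gave 0.68 there. CML37 and CML30 (-0.42), CML42 and CML30 (-0.38) and CML41 and CML38 (-0.081) were least alike. These values describe arrays that fall into groups and share scaling, and CML38 and CML41, which differed in opposite directions between the RGA-GR groups, were nearly unrelated over all 9.

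Among other calcium signalling genes, the lists of calmodulins, CBL sensors, CIPK kinases, calcium-dependent kinases, calmodulin-binding transcription factors and touch genes had 0 probe sets with a single name and are not analysed here. The IQD genes encode proteins with an IQ domain that binds calmodulin, several of them on microtubules, and 9 of 11 named probe sets passed the filter. After Dex in the RGA-GR line, relative to mock, 0 of 9 passed the threshold in limma (0% of all probe sets), with 2 of 9 at an unadjusted p under 0.05 (IQD19 and IQD22, against 8.83%) and a median of 0.038. In RGA-GR Dex, relative to nontransgenic Dex, 2 rose and 1 fell, against 17.5% and 9.44% of all probe sets, with a median of 0.34. IQD22 had ratios of 1.81, 1.97 and 1.47 in RGA-GR Dex, 1.34, 1 and 0.978 in RGA-GR mock, and 0.647, 0.914 and 0.396 in nontransgenic Dex. The 3 groups did not overlap and stood in that order, and the rise over nontransgenic Dex was 1.50 ± 0.28 (SE, adjusted limma p of 0.00695), a call kept in all 20 alternatives.

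IQD18 had ratios of 1.02, 1.38 and 1.33 in RGA-GR Dex, against 0.757, 0.634 and 0.432 in nontransgenic Dex. It rose by 1.06 ± 0.32 (SE, adjusted limma p of 0.0329), a call lost in 7 of 20 alternatives. IQD19 went the other way, with 0.557, 0.516 and 0.399 in RGA-GR Dex, 1.04, 1.31 and 1.59 in RGA-GR mock, and 1.42, 0.695 and 1 in nontransgenic Dex. Its RGA-GR Dex arrays were the lowest 3 of 9 and lay under the filter's cut-off, so it passed through arrays of the other groups alone. Nothing is thus read from its lower values in RGA-GR Dex or from its part in the counts above. Against nontransgenic Dex the difference was -1.04 (SE 0.32, adjusted limma p of 0.0369, lost in 7 of 20 alternatives). Against RGA-GR mock it was -1.41 ± 0.32 with an unadjusted limma p of 0.00122, or 0.514 adjusted. Between RGA-GR mock and nontransgenic Dex 0 of 9 passed in limma, against 15.3% of all probe sets. At an unadjusted p under 0.05 there were 4 of 9, against 32.9%. The nearest was IQD23 (-0.69 ± 0.22, SE, adjusted limma p of 0.0563), which passed in 5 of 20 alternatives. With the pairs as a block within the transgenic line IQD23 had an adjusted limma p of 0.0101, and with a block over all 9 arrays IQD22 had one of 0.0398.

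The list of calcium channels, pumps and exchangers had 7 named probe sets, all of glutamate receptor-like (GLR) channels, of which 4 passed the filter. None of the 4 passed in limma in any comparison, nor at an unadjusted p under 0.05. Over all probe sets the shares were 0% adjusted and 8.83% unadjusted in RGA-GR Dex against RGA-GR mock, 27% and 40.4% between RGA-GR Dex and nontransgenic Dex, with 15.3% and 32.9% between RGA-GR mock and nontransgenic Dex. The GLR differences had medians of 0.035 for the comparison of RGA-GR Dex with RGA-GR mock, 0.42 for RGA-GR Dex against nontransgenic Dex and 0.39 for RGA-GR mock against nontransgenic Dex. GLR3.5 had the lowest p, with 1.03, 0.650 and 0.987 in RGA-GR Dex, against 0.323, 0.318 and 0.493 in nontransgenic Dex. These groups did not overlap, and the difference was 1.23 ± 0.62 (SE, adjusted limma p of 0.161, and 0.0426 with eBayes without trend). GLR3.5 passed the filter through arrays of the RGA-GR line alone, so nothing is read from its lower values in nontransgenic Dex. GLR3.3 and GLR3.6, which carry wound signals between leaves, differed by 0.27 ± 0.25 and -0.28 ± 0.31 (SE) in the same comparison.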

How the data were processed

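Biotin-labelled RNA was measured on Affymetrix arrays, and the submitters' processing notes name GCOS. The deposited values are linear ratios, as read from the values: 15112 of 22810 rows have a median of exactly 1. In 7698 rows the median is under 1, and their divisor, the scaling and the handling of dim probe sets are not given in the sources used here.

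The log2 of the deposited ratio was tested with limma 3.58.1 in R 4.3.3 (eBayes with trend, no block) in 1 fit of 9 arrays with 6 residual degrees of freedom. The 64 control probe sets were left out, and the script was tested on simulated data. Names come from a probe table and from the gene table of TAIR10.1, which served for names and neighbours. The number of arrays limits the precision.

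Members, lists and alternatives were chosen with earlier results of these data known. Every member is named, with full statistics for CML38, members past the threshold and the 3 lowest p in each comparison. Of each other list, up to 4 genes by p are named. Planned sequence descriptions are not given, since no sequence table was used here.

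Deviations from group means correlated between RGA-GR Dex and RGA-GR mock arrays of the same number (r = 0.33, 0.12 and 0.33). The data, and no label, are the ground for calling them pairs. For nontransgenic Dex arrays and transgenic arrays of the same number, r ran from -0.039 to 0.036. Figures were drawn with matplotlib 3.10.9.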

Additional observations from a re-analysis of the deposited data

How the results depend on the processing

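Alternatives covered normalization (quantile, or array medians subtracted), an offset of 0.0894 added ahead of the logarithm, the filter (none, or the 60th percentile, which left CML37 out), eBayes (no trend, or robust), a fit of the compared arrays alone, blocks (replicate or spike-in), a 2-fold minimum and leaving out arrays singly. CML calls between RGA-GR Dex and RGA-GR mock numbered 0 throughout. Between RGA-GR Dex and nontransgenic Dex there was 1 call, and 0 with either normalization, no filter, no trend or the 2-fold minimum, and 0 to 1 without single arrays; without nontransgenic Dex replicate 2 the 1 call was CML38. Between RGA-GR mock and nontransgenic Dex there was 1 call, and 0 with those 5 settings, the compared arrays alone or the spike-in block, and 0 to 1 without single arrays. With either replicate block these counts were 0, 1 and 1. The cause of the losses was not tested.

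Signs turned in differences that had not passed. Between RGA-GR Dex and nontransgenic Dex, CML41 was -0.010 with quantile normalization and -0.029 with array medians subtracted, and IQD23 was 0.071 with the spike-in block. Between RGA-GR mock and nontransgenic Dex, CML23 was -0.54 with the spike-in block. Leaving out single arrays gave ranges across 0. Between RGA-GR Dex and RGA-GR mock these were -0.62 to 0.33 for CML37, -1.30 to 0.098 for CML23 and -0.030 to 0.51 for IQD18. Between RGA-GR Dex and nontransgenic Dex they were -0.038 to 0.34 for CML41 and -0.93 to 0.47 for CML23. Between RGA-GR mock and nontransgenic Dex they were -0.86 to 0.12 for CML37 and -0.67 to 0.30 for CML38.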
